A study of Mus musculus with 12 samples.

Results

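Autophagy is the route by which a cell wraps its own proteins and organelles in a membrane and delivers them to lysosomes. The 44 genes described here encode its machinery in order of action: kinases that start the process, the lipid kinase complex that nucleates the membrane, the enzymes that attach LC3 and GABARAP proteins to it, those proteins themselves, the receptors that bring cargo or mitochondria to them, and the proteins that join the finished vesicle with a lysosome. They were taken by gene symbol from a list of 44 names for their roles, drawn up with earlier results of these data known, and all 44 were found among the 21959 gene IDs of the count table. All 44 also passed the filter on low counts, which left 12384 genes for testing. In heart muscle, autophagy clears worn proteins, and the removal of damaged mitochondria by autophagy is called mitophagy.

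Poly-A RNA was sequenced from ventricles of 6 mice with a heart-specific knockout of Vps13c (Vps13c-cKO) and of 6 wild-type mice (WT). All 12 were males, 7 weeks old and fed chow. The product of Vps13c is a lipid carrier found where the endoplasmic reticulum touches late endosomes and lysosomes. The sources used here give neither the driver of the knockout, nor the deleted exons, nor whether WT mice carried that driver, and its effect and that of the knockout cannot be told apart.

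Libraries held 12484523 to 14188716 gene counts in Vps13c-cKO mice and 13348018 to 15562942 in WT mice. Vps13c had 16.3, 18.1 and 20.3 CPM (counts scaled to library size; lowest, median and highest mouse) in Vps13c-cKO ventricles, against 54.6, 61.8 and 68.6 CPM in WT ventricles. The groups did not overlap, and Vps13c fell by 1.77 ± 0.06 (SE) on the log2 scale (edgeR quasi-likelihood test, adjusted p = 4.47e-14). Cardiomyocyte markers summed to 46625 to 51535 CPM in Vps13c-cKO mice and 47807 to 53910 CPM in WT mice, which fits the tissue label. WT mouse 4 stood apart in atrial markers. The 5 atrial markers summed to 76.7 CPM in WT mouse 4 and 3.76 to 7.28 CPM in the other 5 WT mice. In Vps13c-cKO mice they summed to 13.5 to 28.5 CPM. In Vps13c-cKO mice most of this sum was Nppa, with 12.5 to 27.3 CPM, against 3.14 to 7.95 CPM in WT mice. Sln, Myl7 and Myl4 reached at most 0.0706, 0.353 and 2.19 CPM in Vps13c-cKO mice and 8.24, 29.3 and 31.3 CPM in WT mouse 4. In bulk tissue, fewer cells of a type and less RNA per cell cannot be told apart.

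Transcripts of the autophagy machinery differed little between Vps13c-cKO and WT ventricles. The values are RNA levels, and they measure neither protein nor the rate of autophagy. Of the 44 genes, Sqstm1 was higher (5.65% of all genes were), Atg10 was lower (5.10% of all genes were) and 42 did not pass an adjusted p of 0.05 (edgeR quasi-likelihood test, Benjamini-Hochberg adjustment over all 12384 genes). That is 4.55% of the 44, where 10.7% of all tested genes passed (700 higher, 631 lower) and 11.7% of the 8741 genes expressed in the same range of mean CPM. The 44 were chosen with earlier results of these data known, so these shares are a description. Before adjustment, p was under 0.05 for 6 of the 44 (Ulk1, Rubcn, Atg10, Map1lc3b, Gabarap and Sqstm1) and for 23.8% of all genes. Log2 fold changes (Vps13c-cKO over WT) ran from -0.25 to 0.20 with a median of 0.01, and 26 were positive and 18 negative. The median over all tested genes was 0.000028.

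The data bound these differences closely. The 95% interval of the log2 fold change lay within ±0.25 for 38 of the 44 genes (86.4%), against 46.9% of all tested genes and 63.5% of those in the same CPM range. It lay within ±0.5 for all 44, against 80.7% and 95.1%. The lowest bound was -0.41, for Atg10, and the highest was 0.40, for Atg4c, whose protease recycles GABARAP proteins. The median absolute log2 fold change was 0.04 for the 44 genes, 0.09 over all tested genes and 0.07 over those in the CPM range. Mice of a group were alike: the median coefficient of variation of the 44 genes was 6.30% in Vps13c-cKO and 6.25% in WT mice, against 6.93% and 7.37% for genes of the same CPM range.

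**Figure D1:**
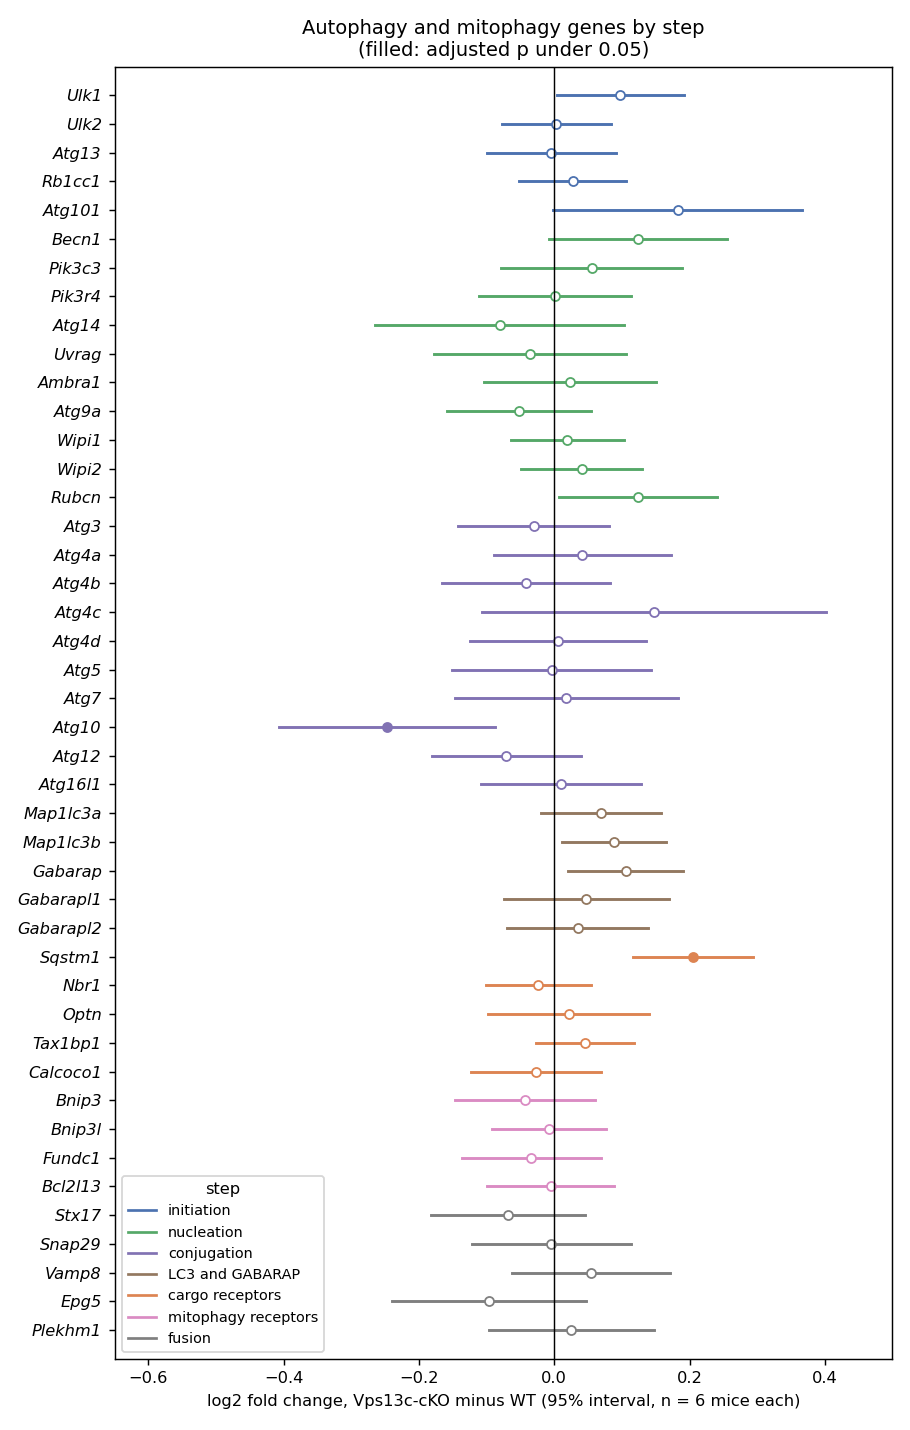
Log2 fold change (Vps13c-cKO over WT, horizontal axis) of each of the 44 genes, grouped by step, with its 95% interval. Filled colour marks the 2 genes past an adjusted p of 0.05: Sqstm1 at 0.20 and Atg10 at -0.25, and the intervals of 38 genes include 0.

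**Figure D2:**
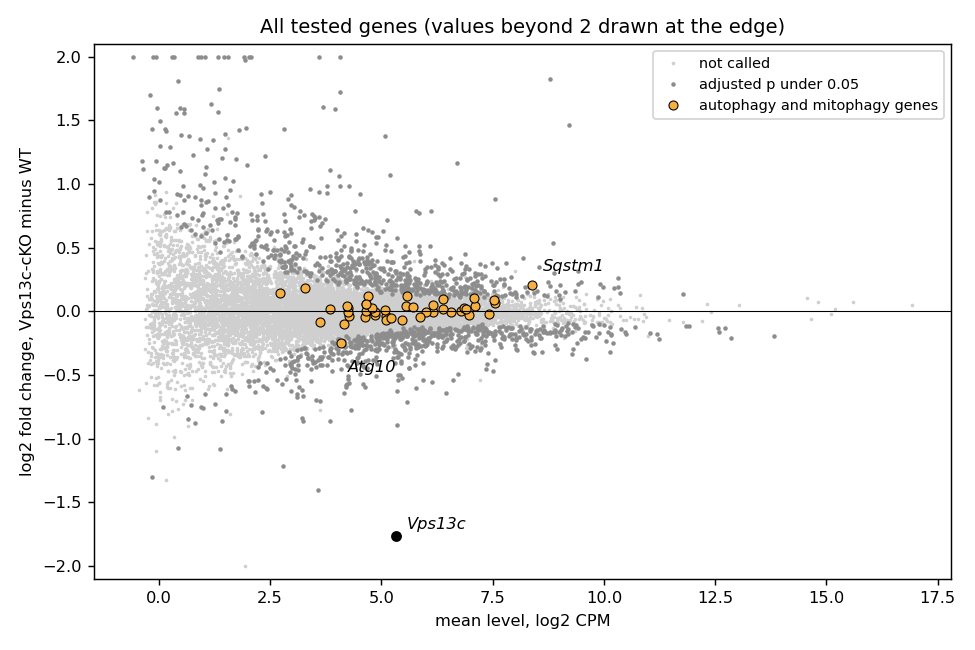
Log2 fold change (vertical axis) against mean log2 CPM (horizontal axis) for the 12384 tested genes, with the 44 autophagy genes drawn over them. The 44 lie between -0.25 and 0.20 within a cloud in which 1331 genes passed the threshold.

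Sqstm1 was the only 1 of the 44 genes whose mice did not overlap between the groups. It encodes p62, the receptor that binds ubiquitin-tagged cargo and LC3, is degraded along with that cargo, and also binds KEAP1, the inhibitor of the transcription factor NRF2. Sqstm1 (ENSMUSG00000015837, chromosome 11) had 331, 353 and 391 CPM in Vps13c-cKO mice (lowest, median, highest), against 294, 314 and 324 CPM in WT mice. All 6 Vps13c-cKO mice lay above all 6 WT mice, a separation seen for 4.93% of all tested genes. The mean was 358 ± 23.5 CPM in Vps13c-cKO and 311 ± 14.1 CPM in WT (SD, n = 6 each), a 1.15-fold difference with a log2 change of 0.20 ± 0.04 (SE, 95% interval 0.12 to 0.29, adjusted p = 0.00279). Sqstm1 passed the threshold whichever mouse was left out, with log2 fold changes of 0.18 to 0.22. Without WT mouse 4 its log2 fold change was 0.22 and its adjusted p 0.00307. By the annotation, 17.3% of its exon bases overlap Mrnip on the opposite strand. Mrnip had 51 counts over the Vps13c-cKO libraries and 42 over the WT libraries, where Sqstm1 had 28768 and 26354.

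Atg10 was the only 1 of the 44 called lower, and its call depended on single mice. It encodes the E2-like enzyme that joins ATG12 to ATG5, a step needed for LC3 attachment. Atg10 (ENSMUSG00000021619, chromosome 13) had 14.5, 14.8 and 17.5 CPM in Vps13c-cKO mice (lowest, median, highest), against 16.0, 18.3 and 21.7 CPM in WT mice. The groups overlapped, with 4 of 6 Vps13c-cKO mice below every WT mouse. The mean was 15.4 ± 1.25 CPM in Vps13c-cKO and 18.3 ± 1.97 CPM in WT (SD, n = 6 each), a log2 change of -0.25 ± 0.08 (SE, 95% interval -0.41 to -0.09, adjusted p = 0.0411). The call was lost in 8 of the 12 fits that left out 1 mouse. Without WT mouse 2, the highest, the log2 fold change of Atg10 was -0.19 (adjusted p = 0.114). Without Vps13c-cKO mouse 1, 4, 5 or 6 it was -0.23, -0.24, -0.23 and -0.23 (adjusted p = 0.0849, 0.0787, 0.0854 and 0.0744). Without WT mouse 4 it was -0.28 and stayed called (adjusted p = 0.0197). Without WT mouse 1, 3 or 5 it was -0.25, -0.25 and -0.24 (adjusted p = 0.0578, 0.0650 and 0.0666).

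Promoters of both changed genes are shown because they are the only members that passed the test. They are the 250 bases before the RefSeq start in build GRCm38.p6, read 5′ to 3′ on the minus strand, at chr11:50210821-50211070 for Sqstm1 and chr13:91223988-91224237 for Atg10. Capitals mark GC boxes, the sequence GGGCGG or its complement, which SP-family factors bind.

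Sqstm1: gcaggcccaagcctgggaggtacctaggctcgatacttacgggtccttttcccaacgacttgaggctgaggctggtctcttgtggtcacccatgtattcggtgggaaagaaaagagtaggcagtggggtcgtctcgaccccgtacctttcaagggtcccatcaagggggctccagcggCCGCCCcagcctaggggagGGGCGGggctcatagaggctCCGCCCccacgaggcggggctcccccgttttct
Atg10: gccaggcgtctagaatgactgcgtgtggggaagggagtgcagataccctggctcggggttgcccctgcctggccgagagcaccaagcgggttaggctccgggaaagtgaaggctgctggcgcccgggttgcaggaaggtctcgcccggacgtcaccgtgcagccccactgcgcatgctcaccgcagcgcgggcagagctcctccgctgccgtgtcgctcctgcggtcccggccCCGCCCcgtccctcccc

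The window of Sqstm1 holds 3 GC boxes, beginning 72, 53 and 33 bases before the start, and that of Atg10 holds 1, at 17 bases. The boxes do not overlap. Neither window holds, on either strand, TATAAA (the TATA box), the E-box CACGTG that factors of the TFEB family bind, or the core TGACNNNGC that NRF2 binds. Bases outside these windows were not searched, so whether either gene has such sites farther from its start was not tested. Of 32851 RefSeq windows of this length, 32.7% hold GGGCGG, 12.4% TATAAA, 6.02% CACGTG and 10.2% TGACNNNGC. Windows were at hand for 36 of the 44 genes, of which 23 hold GGGCGG in a window, 1 TATAAA, 5 CACGTG and 4 TGACNNNGC. These counts are of genes and the shares above are of windows, so they cannot be compared directly.

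The kinase complex that starts autophagy showed 0 calls among its 5 genes, with log2 fold changes from -0.00 to 0.18. Ulk1, its catalytic kinase, had 80.9, 86.7 and 89.5 CPM in Vps13c-cKO mice (lowest, median, highest), against 73.7, 80.0 and 87.2 CPM in WT mice. All 6 Vps13c-cKO mice were above the WT median but the groups overlapped, and Ulk1's log2 fold change of 0.10 ± 0.05 (SE) had an adjusted p of 0.188. Atg101, which stabilises ATG13 in the complex, had 9.46, 9.97 and 11.3 CPM in Vps13c-cKO mice and 7.52, 8.85 and 10.5 CPM in WT mice. Its log2 fold change was 0.18 ± 0.09 (SE, adjusted p = 0.214). The related kinase Ulk2 had 106, 112 and 114 CPM in Vps13c-cKO mice and 102, 110 and 116 CPM in WT mice, a log2 change of 0.00 ± 0.04 (SE). Per kb of all annotated exons, Ulk2 gave 58.4% ± 1.25 of the summed Ulk1 and Ulk2 level in Vps13c-cKO and 60.0% ± 2.32 in WT mice (SD, n = 6 each). The scaffold genes Rb1cc1 and Atg13 had log2 fold changes of 0.03 ± 0.04 and -0.00 ± 0.05 (SE).

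The 10 nucleation genes also gave 0 calls, with log2 fold changes from -0.08 to 0.12. Rubcn encodes Rubicon, an inhibitor of the lipid kinase complex and of vesicle maturation. It had 46.2, 49.2 and 52.4 CPM in Vps13c-cKO mice (lowest, median, highest), against 41.1, 43.6 and 52.5 CPM in WT mice. WT mouse 3 was the highest of all 12 mice for Rubcn. The log2 fold change was 0.12 ± 0.06 (SE, adjusted p = 0.183), and without WT mouse 3 it was 0.17 and passed the threshold (adjusted p = 0.0449). Becn1, which encodes the complex's core subunit Beclin 1, had 26.2, 26.9 and 28.5 CPM in Vps13c-cKO mice and 21.6, 25.1 and 28.0 CPM in WT mice. Its log2 fold change was 0.12 ± 0.06 (SE, adjusted p = 0.240), and 43.9% of its exon bases overlap Cntd1 on the opposite strand, and Cntd1 had 27 counts over the Vps13c-cKO libraries and 24 over the WT libraries, where Becn1 had 2184 and 2107. The lipid kinase Pik3c3, its regulatory subunit Pik3r4 and the adaptors Atg14 and Uvrag had log2 fold changes of 0.06 ± 0.06, 0.00 ± 0.05, -0.08 ± 0.09 and -0.04 ± 0.07 (SE). Ambra1, a regulator of Beclin 1, was at 0.02 ± 0.06 and Atg9a, the membrane protein of the seed vesicles, at -0.05 ± 0.05.

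WIPI proteins read the lipid made by that kinase. Wipi1 had 113, 120 and 132 CPM in Vps13c-cKO mice (lowest, median, highest) and 113, 119 and 125 CPM in WT mice, a log2 change of 0.02 ± 0.04 (SE, adjusted p = 0.828). The level of Wipi1 per length was the highest among nucleation genes, with 27.4 ± 1.47 RPKM (CPM divided by exon length in kb) in Vps13c-cKO and 27.0 ± 0.974 in WT mice (SD, n = 6 each). Wipi1 made up 85.8% ± 0.806 of the Wipi1 and Wipi2 level per kb in Vps13c-cKO and 86.0% ± 0.823 in WT mice (SD, n = 6 each).

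Atg10 aside, the genes that attach LC3 and GABARAP to membranes gave 0 calls among 9. The ATG12 conjugate acts with ATG5 and ATG16L1 as the E3-like enzyme, ATG7 is the E1-like and ATG3 the E2-like enzyme of LC3, and the ATG4 proteases trim and release LC3 and GABARAP. Atg12 had 29.6, 34.2 and 36.0 CPM in Vps13c-cKO mice (lowest, median, highest), against 32.2, 35.2 and 37.1 CPM in WT mice, a log2 change of -0.07 ± 0.05 (SE, adjusted p = 0.464). Atg5, the partner that ATG10 joins to ATG12, was at -0.00 ± 0.07, Atg7 at 0.02 ± 0.08, Atg3 at -0.03 ± 0.05 and Atg16l1 at 0.01 ± 0.06 (log2 fold change ± SE). Of the protease genes, Atg4a, Atg4b and Atg4d were at 0.04 ± 0.06, -0.04 ± 0.06 and 0.01 ± 0.06. Atg4c, the lowest of the 44 genes in CPM, was the least certain. It had 4.94, 6.97 and 8.35 CPM in Vps13c-cKO mice and 5.25, 6.31 and 6.79 CPM in WT mice, with coefficients of variation of 19.5% and 9.86%, and a log2 fold change of 0.15 ± 0.12 (SE, 95% interval -0.11 to 0.40). Atg4a gave 44.6% ± 1.62 of the summed ATG4 level per kb in Vps13c-cKO mice and 44.3% ± 3.07 in WT mice (SD, n = 6 each).

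All 5 LC3 and GABARAP genes had positive log2 fold changes, from 0.03 to 0.11, and 0 of 5 passed the threshold. Their products are the small proteins that coat the growing membrane and hold cargo receptors. Gabarap had 132, 140 and 145 CPM in Vps13c-cKO mice (lowest, median, highest), against 119, 131 and 137 CPM in WT mice. In 4 of 6 Vps13c-cKO mice it lay above every WT mouse. Its log2 fold change was 0.11 ± 0.04 (SE, adjusted p = 0.108, edgeR quasi-likelihood test). Map1lc3b, which encodes LC3B, the usual marker of autophagosomes, had 181, 191 and 199 CPM in Vps13c-cKO mice and 170, 179 and 187 CPM in WT mice. Again 4 of 6 Vps13c-cKO mice lay above every WT mouse, and the log2 fold change was 0.09 ± 0.04 (SE, adjusted p = 0.140). Map1lc3a had 175, 194 and 207 CPM in Vps13c-cKO mice and 172, 187 and 196 CPM in WT mice, with a log2 change of 0.07 ± 0.04 (SE, adjusted p = 0.354). Gabarapl1 and Gabarapl2 were at 0.05 ± 0.06 and 0.03 ± 0.05. The upper bounds of the 5 intervals reached at most 0.19.

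The make-up of the LC3 and GABARAP family differed by less than 1 SD between the groups. Per kb of exon, Map1lc3a held 50.6% ± 2.11 of the family's summed level in Vps13c-cKO mice and 50.9% ± 1.66 in WT mice (SD, n = 6 each). Gabarap held 23.4% ± 1.12 in Vps13c-cKO and 22.8% ± 0.837 in WT mice. The other three, Gabarapl1, Map1lc3b and Gabarapl2, held 11.2%, 7.83% and 6.98% in Vps13c-cKO and 11.4%, 7.75% and 7.17% in WT mice. Exon lengths are those of all annotated exons together, so shares would shift if a gene uses short isoforms.

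**Figure D3:**
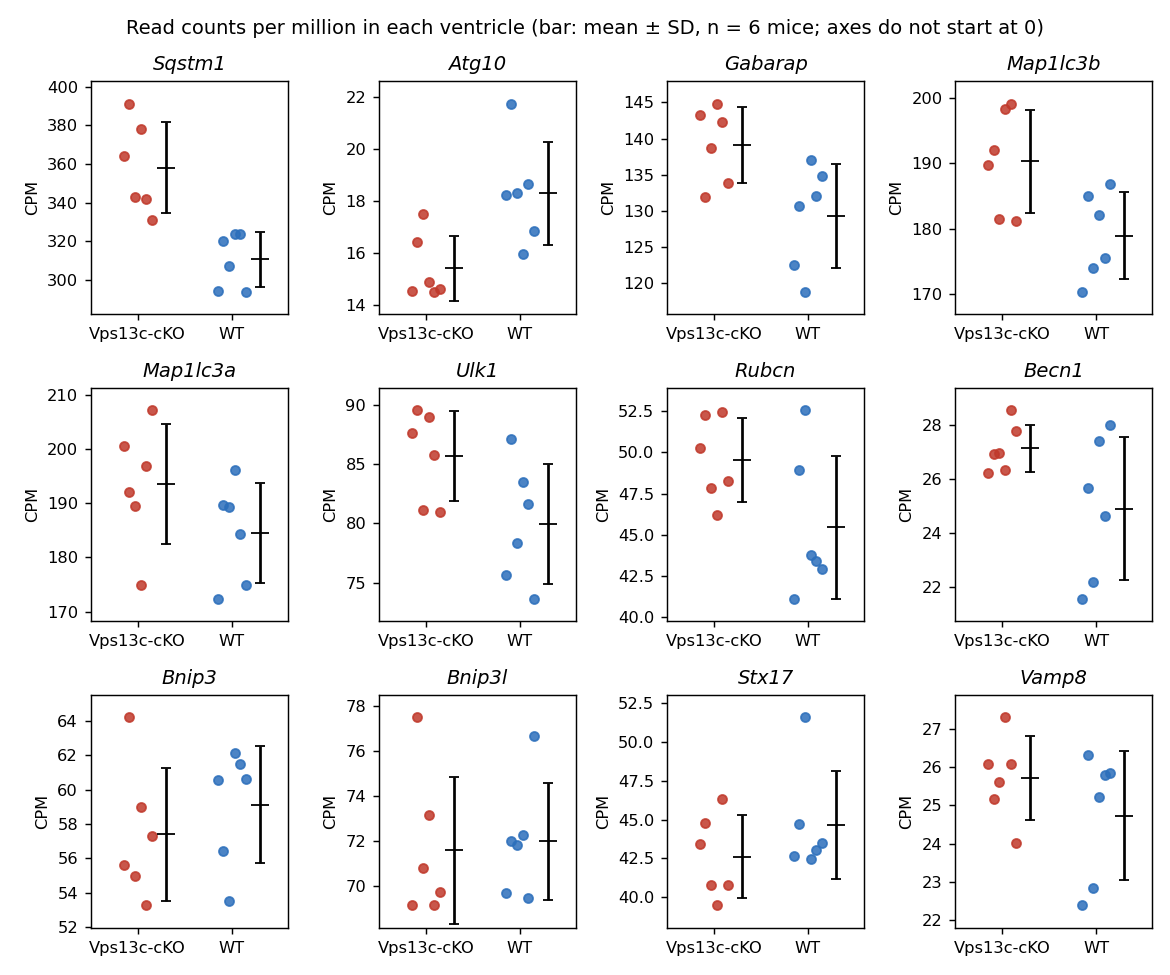
CPM of single mice (points) for autophagy genes named in the text, Vps13c-cKO left of WT in each panel, with the group mean and SD; vertical axes do not start at 0. The groups are apart for Sqstm1, with 331 to 391 CPM in Vps13c-cKO mice and 294 to 324 in WT mice, and overlap for Atg10.

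Cargo receptors other than Sqstm1 gave 0 calls among 4. Tax1bp1, a receptor for ubiquitin-tagged cargo, had 137, 140 and 145 CPM in Vps13c-cKO mice (lowest, median, highest), against 129, 136 and 143 CPM in WT mice, a log2 change of 0.05 ± 0.03 (SE, adjusted p = 0.477). Nbr1, which acts together with p62 on ubiquitin-tagged aggregates, was at -0.02 ± 0.04, Optn (optineurin, a receptor of mitophagy and of bacteria) at 0.02 ± 0.06 and Calcoco1 (a receptor for endoplasmic reticulum and Golgi) at -0.03 ± 0.05 (log2 fold change ± SE). Per kb of exon, Sqstm1 was the highest of the 5 receptors, with 107 ± 7.00 RPKM in Vps13c-cKO and 92.6 ± 4.19 in WT mice (SD, n = 6 each). Nbr1, next in order, had 24.7 in Vps13c-cKO and 25.1 in WT mice.

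The 4 receptors anchored in the outer mitochondrial membrane were all within narrow bounds of 0. Bnip3, Bnip3l (NIX), Fundc1 and Bcl2l13 bind LC3 or GABARAP directly and mark mitochondria for mitophagy without ubiquitin. Bnip3 had 53.3, 56.5 and 64.2 CPM in Vps13c-cKO mice (lowest, median, highest), against 53.5, 60.6 and 62.1 CPM in WT mice, a log2 change of -0.04 ± 0.05 (SE, adjusted p = 0.667). Fundc1 had 32.4, 33.7 and 36.3 CPM in Vps13c-cKO mice and 32.4, 34.9 and 37.1 CPM in WT mice, a log2 change of -0.03 ± 0.05 (adjusted p = 0.743). Bnip3l and Bcl2l13 were at -0.01 ± 0.04 and -0.01 ± 0.05. All 4 log2 fold changes were negative, 0 of 4 passed the threshold, and the 4 intervals together ran from -0.15 to 0.09. Bnip3 and Uvrag are the members on chromosome 7, where 18.5% of 955 tested genes passed the threshold.

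Fusion with the lysosome was represented by 5 genes, of which 0 passed. Stx17, Snap29 and Vamp8 encode the SNARE proteins that join the membranes, and Epg5 and Plekhm1 encode tethers. Epg5 had 15.7, 17.1 and 19.3 CPM in Vps13c-cKO mice (lowest, median, highest), against 16.4, 18.0 and 20.3 CPM in WT mice, a log2 change of -0.10 ± 0.07 (SE, adjusted p = 0.438). Stx17 had 39.5, 42.1 and 46.3 CPM in Vps13c-cKO mice and 42.5, 43.2 and 51.6 CPM in WT mice, a log2 change of -0.07 ± 0.05 (SE, adjusted p = 0.50). Vamp8 had 24.0, 25.8 and 27.3 CPM in Vps13c-cKO mice and 22.4, 25.5 and 26.3 CPM in WT mice, a log2 change of 0.05 ± 0.06 (SE, adjusted p = 0.617). Snap29 and Plekhm1 were at -0.00 ± 0.06 and 0.03 ± 0.06.

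Levels per kb of exon spanned 85.2-fold in WT ventricles, and their order was much the same in both groups. Map1lc3a was the highest, with 164 ± 9.35 RPKM in Vps13c-cKO and 156 ± 7.81 in WT mice (SD, n = 6 each). Sqstm1 and Gabarap (75.5 in Vps13c-cKO, 70.1 in WT) followed, then Gabarapl1 (36.2 in Vps13c-cKO, 35.0 in WT). At the low end were Atg4c (2.04 in Vps13c-cKO, 1.83 in WT) and Epg5 (1.72 in Vps13c-cKO, 1.83 in WT), which did not differ in WT. Of the 44 genes, 24 held the same rank in both groups, and the largest difference in rank was 2. Exon lengths join all annotated exons, so this order, like the family shares, would shift if a gene uses short isoforms.

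**Figure D4:**
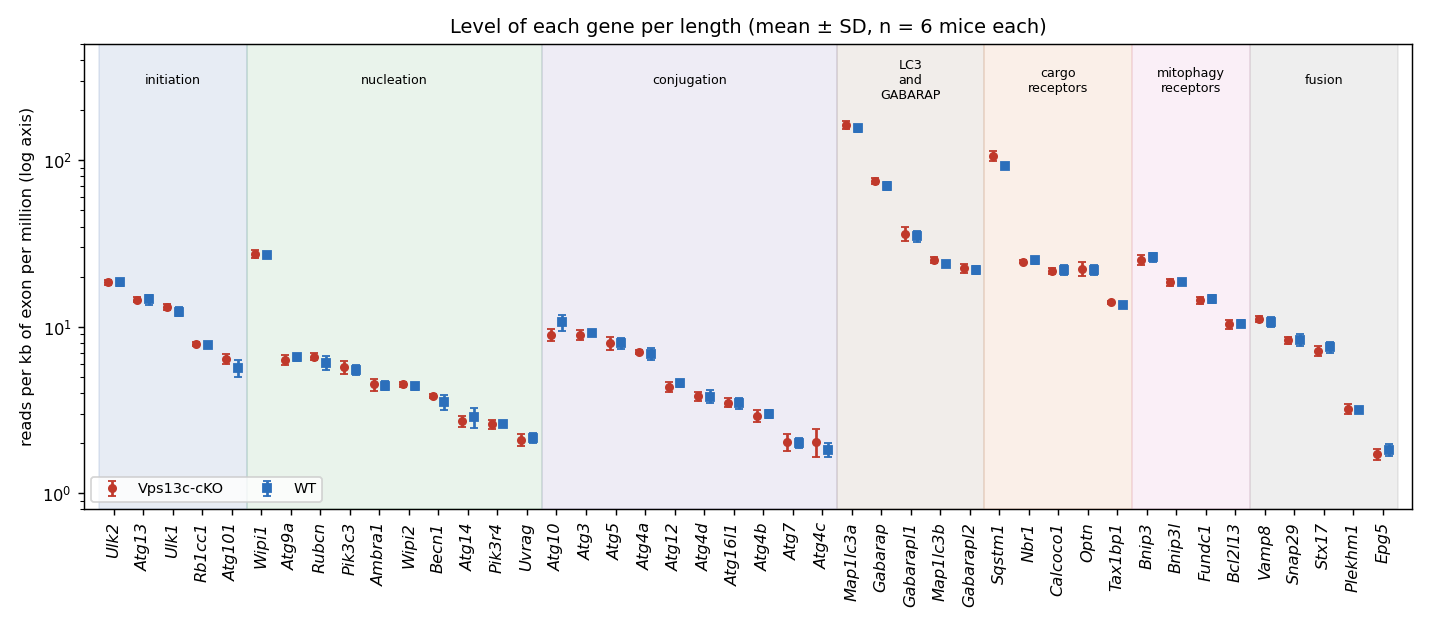
Mean level of each of the 44 genes in RPKM (reads per kb of exon and per library size, log axis), Vps13c-cKO and WT side by side with the SD over 6 mice. Map1lc3a is the highest, at 164 in Vps13c-cKO and 156 in WT mice, and Sqstm1 is next.

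Genes around this machinery gave 17 calls, in both directions. Of 115 tested genes on 8 lists of related and regulatory genes, 8 were higher and 9 lower, or 14.8%, where 10.7% of all tested genes passed. These lists, too, were chosen with earlier results known. Further phagophore and LC3 genes had 1 call among 16: Tecpr1, which links autophagosomes to lysosomes, was 1.12-fold higher, with 48.6, 50.4 and 58.0 CPM in Vps13c-cKO mice (lowest, median, highest) and 41.6, 47.2 and 48.1 CPM in WT mice (log2 fold change 0.17 ± 0.05 SE, adjusted p = 0.0398). Tethering and lysosomal fusion genes had 1 among 18: Arl8a, a small GTPase that moves lysosomes, was 1.19-fold higher, with 18.2, 19.4 and 21.5 CPM in Vps13c-cKO mice and 15.3, 17.0 and 17.2 CPM in WT mice (0.25 ± 0.06 SE, adjusted p = 0.0143). In both genes the groups did not overlap. This held for 6 of the 115 list genes and for 4.93% of all tested genes.

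Of 18 other mitophagy genes, 2 were lower and 0 higher, a share of 11.1% called, near the 10.7% of all tested genes. Nipsnap2, whose mitochondrial protein recruits autophagy receptors, had 670, 685 and 721 CPM in Vps13c-cKO mice (lowest, median, highest), against 762, 788 and 839 CPM in WT mice. The groups did not overlap, and Nipsnap2 fell by 0.20 ± 0.03 on the log2 scale (SE, adjusted p = 0.000358). Pink1, the kinase that accumulates on damaged mitochondria, had 309, 328 and 357 CPM in Vps13c-cKO mice and 327, 376 and 417 CPM in WT mice, and fell by 0.18 ± 0.05 (SE, adjusted p = 0.0222). Whether Nipsnap2 and Pink1 differ from the 4 anchored receptors, which gave 0 calls, was not tested.

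Of 11 other selective receptors, 1 was higher and 2 lower (27.3% called), where 10.7% of all tested genes passed. Stbd1, a receptor for glycogen, had 7.62, 8.73 and 9.38 CPM in Vps13c-cKO mice (lowest, median, highest) and 4.89, 6.90 and 8.23 CPM in WT mice, a 1.30-fold difference (log2 fold change 0.38 ± 0.11 SE, adjusted p = 0.0353). Tollip, which also sorts endosomal cargo and lies on chromosome 7, had 67.1, 71.7 and 75.3 CPM in Vps13c-cKO mice and 72.8, 81.7 and 85.8 CPM in WT mice (-0.17 ± 0.04 SE, adjusted p = 0.0107). Atl3, a receptor for tubular endoplasmic reticulum, had 40.8, 43.4 and 45.9 CPM in Vps13c-cKO mice and 46.3, 48.4 and 51.2 CPM in WT mice (-0.15 ± 0.04 SE, adjusted p = 0.0280). The groups did not overlap for Atl3.

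Regulators of autophagy by nutrients and energy gave 3 calls among 27 (11.1%), near the 10.7% of all tested genes that passed. The list of transcription factors, which includes the coactivator gene Ppargc1a, gave 3 among 8 (37.5%). Prkab2, the AMPK subunit of muscle, had 79.6, 85.9 and 92.9 CPM in Vps13c-cKO mice (lowest, median, highest), against 66.1, 73.2 and 78.4 CPM in WT mice, with no overlap (log2 fold change 0.24 ± 0.05 SE, adjusted p = 0.00137). The folliculin partners Fnip2 and Fnip1 were called in opposite directions, at 0.24 ± 0.08 and -0.14 ± 0.04 (adjusted p = 0.0441 and 0.0346). Mtor was at 0.03 ± 0.04 and Prkaa2, the main catalytic AMPK subunit of muscle, at -0.06 ± 0.04 (adjusted p = 0.708 and 0.339). Ppargc1a encodes PGC-1α, a coactivator of mitochondrial genes. It had 133, 157 and 164 CPM in Vps13c-cKO mice and 187, 204 and 252 CPM in WT mice, with no overlap (-0.47 ± 0.07 SE, adjusted p = 0.000133). Foxo4 and Mitf were also lower, at -0.15 ± 0.04 and -0.13 ± 0.04 (adjusted p = 0.0207 and 0.0485). Tfeb, the best known activator of lysosomal and autophagy genes, was at 0.18 ± 0.08, Tfe3 at -0.03 ± 0.08, Foxo1 at 0.09 ± 0.06 and Foxo3 at -0.12 ± 0.08, and these 4 did not pass (adjusted p = 0.156, 0.855, 0.406 and 0.435).

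Because p62 binds KEAP1 and Sqstm1 is itself a known target of NRF2, the KEAP1 and NRF2 genes are set beside it. Of 11 tested, 3 were higher and 0 lower, where 5.65% of all tested genes were higher. The log2 fold change was positive for 9 of the 11, with a median of 0.12, and for 6194 of all 12384 genes. The list was chosen with earlier results known, so these counts are a description. Whether NRF2 has a part in the higher level of Sqstm1 was not tested. Srxn1 (sulfiredoxin) had 18.8, 21.0 and 23.4 CPM in Vps13c-cKO mice (lowest, median, highest), against 14.4, 16.1 and 20.2 CPM in WT mice (0.35 ± 0.08 SE, adjusted p = 0.00678). Hmox1 (heme oxygenase) had 5.86, 7.74 and 11.2 CPM in Vps13c-cKO mice and 4.52, 5.70 and 6.86 CPM in WT mice (0.47 ± 0.14 SE, adjusted p = 0.0309). Nqo1, a quinone reductase, had 45.6, 48.8 and 50.3 CPM in Vps13c-cKO mice and 33.7, 41.9 and 47.9 CPM in WT mice (0.20 ± 0.06 SE, adjusted p = 0.0403). Keap1 and Nfe2l2, which encodes NRF2, were at -0.08 ± 0.06 and 0.06 ± 0.05 (adjusted p = 0.493 and 0.451).

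Of these 17 calls on related genes, Nipsnap2, Tollip, Arl8a, Prkab2, Ppargc1a, Srxn1 and Trim63, a muscle ubiquitin ligase on the list of atrophy genes, passed in all 21 alternative fits. The other 10 lost the threshold when some single mouse was left out. Foxo4 did so without Vps13c-cKO mouse 1 or WT mouse 3 (adjusted p up to 0.0545). Pink1 did so without Vps13c-cKO mouse 3, 4 or 5 or WT mouse 2 or 3 (up to 0.0649), and Atl3 without Vps13c-cKO mouse 3, 4 or 6 or WT mouse 3 or 6 (up to 0.0733). Tecpr1 lost it without Vps13c-cKO mouse 1, 2, 3 or 4 or WT mouse 5 or 6 (up to 0.120), and Fnip1 without Vps13c-cKO mouse 3, 4 or 5 or WT mouse 2, 3 or 5 (up to 0.0888). Stbd1 lost it without Vps13c-cKO mouse 1, 2, 4 or 6 or WT mouse 2, 3 or 5 (up to 0.0893), and Hmox1 without Vps13c-cKO mouse 2, 3 or 4 or WT mouse 1, 3, 5 or 6 (up to 0.0949). Fnip2 lost it in 8 of the 12 such fits (up to 0.121) and passed without Vps13c-cKO mouse 5 or 6 or WT mouse 5 or 6. Mitf also lost it in 8 (up to 0.118), passing without Vps13c-cKO mouse 3 or 6 or WT mouse 4 or 6, and Nqo1 in 9 (up to 0.0802), passing without Vps13c-cKO mouse 6 or WT mouse 2 or 5.

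**Figure D5:**
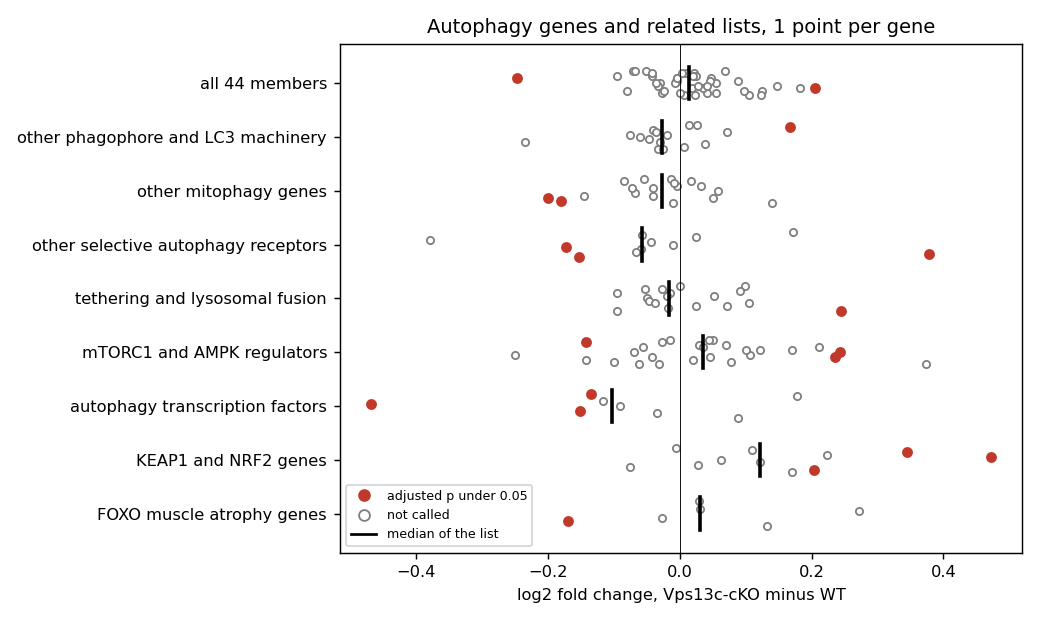
Log2 fold change (Vps13c-cKO over WT) of each tested gene of the 44 and of the 8 related lists, 1 row per list, with genes past the threshold marked. Ppargc1a lies lowest among the marked genes, at -0.47, and Hmox1 highest, at 0.47.

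Some cell type markers differed between the groups, and their values stand here beside Sqstm1 and Atg10. Fibroblast markers summed to 1910 to 2136 CPM in Vps13c-cKO mice and 1655 to 1952 CPM in WT mice, with 5 of 8 higher and 0 lower. Macrophage markers summed to 343 to 414 CPM in Vps13c-cKO mice and 279 to 395 CPM in WT mice, with 4 of 9 higher and 0 lower. Of these 9, 8 had positive log2 fold changes and 1, Cd163, was at -0.14 ± 0.15 (SE). Endothelial markers summed to 1411 to 1629 CPM in Vps13c-cKO mice and 1534 to 1721 CPM in WT mice, with 2 of 8 lower and 0 higher. Over all tested genes, 5.65% were higher and 5.10% lower. The fibroblast, macrophage and endothelial sums overlapped between the groups, while those of smooth muscle and pericyte markers, given below, did not. Among 8 cardiomyocyte markers, 2 were lower and 0 higher. The share of mitochondrially encoded counts was 30.6% to 32.2% in Vps13c-cKO and 29.2% to 31.4% in WT mice. The part of these differences in the results for Sqstm1, Atg10 and the related genes was not tested.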

How the data were processed

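The authors deposited 1 table of raw read counts, genes by mice, and its header names no scaling. Tools named in the submitters' processing notes are HTSeq 0.9.1, HISAT2 2.1.0 and fastp 0.22.0, with GRCm39 as the build. Libraries were made from poly-A RNA and amplified by PCR with no molecular identifiers, per the labels' protocols. The sources used here state no annotation release or strand setting, so reads of overlapping genes on opposite strands cannot be told apart. Names, chromosomes and exon lengths came from GENCODE M21 (another build, GRCm38), which named 21851 of 21959 IDs. RPKM divide CPM by the length of all exons of a gene.

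The main test was the quasi-likelihood F test, two-sided, of edgeR (version 4.0.16, under R 4.3.3; TMM factors, filterByExpr, 12384 genes, Benjamini-Hochberg adjustment, threshold 0.05). Errors of log2 fold changes are standard errors, and CPM use TMM-scaled library sizes. All columns were matched to mice by name. By the titles, samples are separate mice. Depth was 12484523 to 15562942 counts per mouse. Gene lists and members were chosen with earlier results of these data known. Lowest, median and highest values are given for Vps13c, called members and, in each step, the 2 members with the smallest p and the one highest per kb. Further members, Trim63 and Fbxo32 were named after their values were seen, and so was the choice of promoters. Of related lists, every called gene and 8 preset regulators are named. Of 119 list genes, Vamp7 was not matched, and Atg9b, Calcoco2 and Slc7a11 were too low to test.

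Results were recomputed with upper-quartile factors or DESeq2 size factors, on nuclear genes only, without a filter or with a mean of at least 5 CPM, by limma-voom (limma 3.58.1) or the Wald test of DESeq2 1.42.0, with robust empirical Bayes, with a replicate block, and without each mouse in turn.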

Additional observations from a re-analysis of the deposited data

Results flagged for a closer look

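In 3 of 140 groups of 6 mice checked over 70 genes, 1 mouse lay far from the other five by Dixon's test at the 95% level, which chance does in about 1 group of 20. Gabarapl2 reached 58.9 CPM in Vps13c-cKO mouse 2, where the next mouse of that group had 53.1. Stx17 reached 51.6 CPM in WT mouse 3, where the next WT mouse had 44.7. Snap29 reached 33.1 CPM in WT mouse 1, where the next WT mouse had 28.7. These 3 genes did not pass the threshold with any single mouse left out.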

How the results depend on the processing

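Sqstm1 passed the threshold in all 21 alternative fits (adjusted p 0.0002 to 0.0107). Atg10 passed in the 9 fits that kept all mice (0.0307 to 0.0479) and lost the threshold in 8 of the 12 that left out 1. Counts of members called ran over these 12 fits from 1 to 2 higher, with Rubcn the second, and from 0 to 1 lower. Related genes called ran from 3 to 9 higher and from 5 to 9 lower, and 5 were higher with no filter; the causes were not tested. Calls over all genes ran from 561 to 725 higher and from 504 to 672 lower. With the replicate number as a block, 687 genes were higher and 625 lower, and the members called stayed at 1 and 1. The numbers did not pair the mice (correlations of same-numbered deviations from -0.0396 to 0.0618), and only number 6 correlated best with its own. The block took the threshold from Atl3 and Fnip2 (adjusted p = 0.0519 and 0.0744). No filter took it from Tecpr1, Nqo1 and Fnip2 (0.0567, 0.0533 and 0.0612), limma-voom from Fnip2 (0.0530), and upper-quartile factors and the minimum of 5 CPM from Mitf (0.0569 and 0.0520).

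Signs changed for 15 members within 0.036 of 0, none of them called. Pik3r4 was at -0.00070 with nuclear genes only, -0.0063 with no filter, -0.0013 with DESeq2, -0.00082 with limma-voom and -0.00091 with the block. With no filter, Ulk2 was at -0.0041 and Atg4d at -0.0015, and with a minimum of 5 CPM, Atg13 was at 0.0013, Atg5 at 0.0016, Bcl2l13 at 0.00013 and Snap29 at 0.0012. With 1 mouse left out, log2 fold changes ran from -0.020 to 0.018 (Ulk2), -0.022 to 0.030 (Atg13), -0.029 to 0.019 (Pik3r4), -0.064 to 0.0012 (Uvrag), -0.0051 to 0.065 (Ambra1), -0.0076 to 0.036 (Wipi1), -0.036 to 0.043 (Atg4d), -0.052 to 0.029 (Atg5), -0.027 to 0.056 (Atg7), -0.025 to 0.036 (Atg16l1), -0.0017 to 0.0595 (Gabarapl2), -0.011 to 0.062 (Optn), -0.032 to 0.0086 (Bnip3l), -0.034 to 0.020 (Bcl2l13), -0.026 to 0.038 (Snap29) and -0.076 to 0.010 (Tfe3). At these depths, Atg4c, with 546 counts over Vps13c-cKO libraries and 521 over WT libraries, had the widest interval. The counts are reads and not molecules.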

Other observations

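Of the 6 tested genes of muscle atrophy driven by FOXO factors, 1 was lower and 0 higher, where 5.10% of all tested genes were lower. Trim63, the muscle ubiquitin ligase MuRF1, had 182, 194 and 204 CPM in Vps13c-cKO mice (lowest, median, highest), against 200, 216 and 239 CPM in WT mice, and fell by 0.17 ± 0.04 on the log2 scale (SE, edgeR quasi-likelihood test, adjusted p = 0.0103). Fbxo32, which encodes the related ligase atrogin-1, was at 0.03 ± 0.05 (adjusted p = 0.780).

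Other cell type lists gave these values, where 5.65% of all tested genes were higher and 5.10% lower. Smooth muscle and pericyte markers summed to 1524 to 1581 CPM in Vps13c-cKO mice and 1585 to 1892 CPM in WT mice, with 1 of 7 tested higher and 2 lower. The largest in this sum were Rgs5 (mean 836 CPM in Vps13c-cKO, 905 in WT) and Abcc9 (483 and 515). Rgs5 and Pdgfrb were called lower. Of the 7 log2 fold changes, 5 were negative and 2 positive. The positive ones were Myh11 (0.34 ± 0.10 SE, called higher) and Cnn1 (0.86 ± 0.33 SE, not called). Of the cardiomyocyte markers, 2 of 8 were lower, and of the atrial markers Nppa, 1 of 2 tested, was higher. The other, Myl4, was at -2.21 ± 0.85 (log2 fold change ± SE) and was not called. Its highest value, 31.3 CPM, was that of WT mouse 4. Erythroid genes summed to 237 to 736 CPM in Vps13c-cKO mice and 282 to 452 CPM in WT mice, with 0 of 5 tested called. Adipocyte markers (0.149 to 1.12 CPM in Vps13c-cKO, 0.0723 to 1.01 CPM in WT) and lymphocyte markers (1.62 to 2.32 CPM in Vps13c-cKO, 1.15 to 1.63 CPM in WT) were too low to test.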
